A study of Homo sapiens with 10 samples.

Results

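IMR90 cells that carried RAS, a siRNA and a lentivirus with mutant METTL3 were compared with growing IMR90 cells, gene by gene, over the whole transcriptome. The comparison rests on 4 of the 10 samples of the study, 2 labelled as the mutant knock-in and 2 as growing control, chosen by the names of their columns in the count table. IMR90 cells are human fetal lung fibroblasts. The mutant knock-in cells had received a retrovirus with the RAS oncogene, a siRNA against METTL3 and a lentivirus that expressed a METTL3 mutant. Wild type knock-in cells received the same with wild type METTL3. METTL3 knockout cells received RAS and the siRNA (the loss is by siRNA, although the title says knockout). Their column names also hold the label vec, which may stand for an empty vector, where those of the knock-ins hold WT and MT. Senescent control cells received RAS with a control siRNA, and growing control cells received a retrovirus without RAS and a control siRNA. Cells were seeded for the assay on day 4 and harvested after 48 hours. Each group had 2 samples.

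Several features limit the groups as models. The sources used here do not name the METTL3 mutant, nor do they say whether the controls received an empty lentivirus. The treatment protocol names METTL14 where titles and column names give METTL3, and the counts below bear on this. RAS, the siRNA, the lentivirus and the mutant protein all differ between the mutant knock-in and growing control, so that their parts in a difference cannot be told apart. Nothing in the labels says that the samples of a group came from separate cultures, and if they did not, the p-values reflect technical spread alone.

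METTL3 is the catalytic subunit of the nuclear complex that writes N6-methyladenosine, the most common internal modification of messenger RNA, together with METTL14 and the adaptor WTAP. Oncogenic RAS drives primary fibroblasts into senescence, a lasting arrest in which the cells lose the nuclear lamina protein LMNB1 and secrete cytokines, chemokines and proteases known as the senescence-associated secretory phenotype, or SASP. Interferon-stimulated genes are a separate programme, switched on when interferon or foreign or misplaced nucleic acid is sensed, and double-stranded RNA is one such signal.

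Between 16293975 and 23570266 reads were counted per library, with 16911841 and 16401466 in the mutant knock-in, against 23570266 and 22977220 in growing control. METTL3 (ENSG00000165819) alone took 11.3% and 14.2% of the counts in the mutant knock-in, against 0.00704% and 0.00791% in growing control, and was left out of the library totals. No 95% Wilson interval of these shares was wider than 0.034 percentage points, which covers counting error only. Without METTL3 the totals were 14998709 and 14068381 in the mutant knock-in, against 23568606 and 22975402 in growing control. Between the libraries of a group, the chi-square per gene was 3.61 in the mutant knock-in, 5.07 to 6.13 in the wild type knock-in, the knockout and senescent control, and 34.4 in growing control, whose libraries were the least alike. The test used below takes the same spread for a gene in all 5 groups. For genes that vary between the growing control libraries, p-values and standard errors against growing control may therefore be too small. Of 10 fibroblast markers all were measured, 2 were higher and 8 lower in the mutant knock-in, and their summed level was 6380 and 5660 CPM (counts per 1000000 of the scaled library total), against 18400 and 15200 CPM in growing control. In bulk RNA, fewer cells of a type and less RNA per cell cannot be told apart. The summed leukocyte markers stood at 7.65 and 10.6 CPM in the mutant knock-in, against 1.37 and 1.78 CPM in growing control, with CD3E and MS4A1 at 0 counts in both groups. Endothelial markers summed to 27.2 and 28.5 CPM in the mutant knock-in, against 20.7 and 22.7 CPM in growing control, with CLDN5 at 0 in both. Epithelial markers summed to 4.95 and 5.39 CPM in the mutant knock-in, against 26.4 and 24.1 CPM in growing control, with KRT5 at 0 in both. Most of the growing control sum was KRT19, at 21.4 and 19.7 CPM. CLDN4 was also lower, at 1.63 and 1.66 CPM in the mutant knock-in, against 4.43 and 3.47 CPM in growing control. EPCAM was alike, at 0.627 and 0.798 CPM, against 0.621 and 0.777 CPM. CDH1 had 7 and 8 counts in the mutant knock-in, against 0 and 3 in growing control, and ESRP1 had 5 and 12, against 0 and 0. Neither CDH1 nor ESRP1 was tested, and in the wild type knock-in they had 8 and 9 counts and 2 and 5 counts. Skeletal muscle markers summed to 111 and 144 CPM in the mutant knock-in, against 2.3 and 2.24 CPM in growing control, with MYOD1, MYOG and CKM at 0 in both. Neuronal markers summed to 118 and 108 CPM in the mutant knock-in, against 284 and 265 CPM in growing control. These sums rest on few genes. In the mutant knock-in, TTN had 109 and 141 CPM of the muscle sum and TEK 23.7 CPM in each library of the endothelial sum. PTPRC and LYZ made up most of the leukocyte sum there. In growing control, TUBB3 had 269 and 242 CPM of the neuronal sum, against 89.3 and 79.8 CPM in the mutant knock-in. SYT1, another neuronal marker, went up from 12 and 20.9 to 27.1 and 26.5 CPM.

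Most of the measured transcriptome differed between the mutant knock-in and growing control. Of 16916 genes tested, 11485 (67.9%) passed the test, of which 6026 were higher (35.6% of all) and 5459 lower (32.3%) in the mutant knock-in, by edgeR's quasi-likelihood test at an adjusted p under 0.05, where the adjustment is that of Benjamini and Hochberg over all genes tested. Changes are given as log2 fold changes, on which 1 is a doubling, with a standard error (SE). The SE was not fitted but worked back, as the size of the change over the square root of the test's F statistic. For genes at few counts it can be smaller than the counting error. By at least 1 on this scale, 3740 genes (22.1%) were higher and 1962 (11.6%) lower, and the median of all genes was 0.058. For 7265 genes (42.9%) both mutant knock-in libraries lay above both growing control libraries, and for 6545 (38.7%) both lay below. The counts for gene lists below are to be read against these shares.

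**Figure D1:**
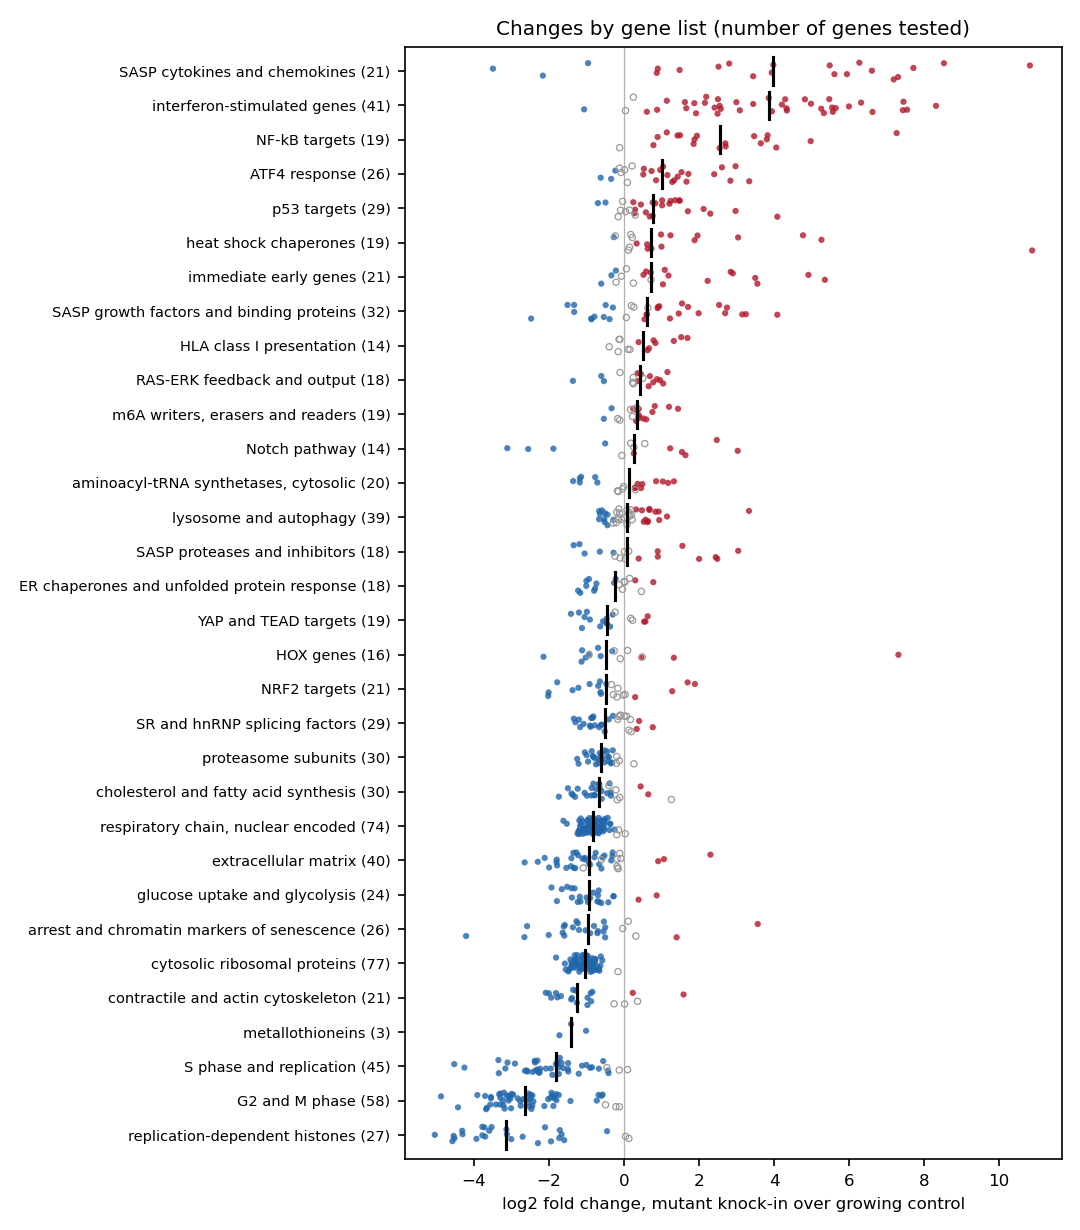
Log2 fold change of each tested gene, mutant knock-in over growing control, by gene list (n = 2 libraries per group). Each point is a gene, red where higher and blue where lower at an edgeR adjusted p under 0.05 and open where it missed that threshold, a black bar marks the median of the list, lists run by their median, and points are spread vertically only to keep them apart. Interferon-stimulated genes were higher in 38 of 41 cases, whereas genes of the S phase, of the G2 and M phases and of the cytosolic ribosome had 0 genes higher.

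METTL3 itself had 119900 and 155100 CPM in the mutant knock-in, against 73.6 and 83.1 CPM in growing control (log2 fold change 10.78, SE 0.21, edgeR adjusted p = 5.14e-11). The wild type knock-in had 59770 and 60670 CPM, the METTL3 knockout 24.5 and 30.2 CPM and senescent control 49.5 and 59.9 CPM. Both knock-in groups therefore carried METTL3 transcripts far above every other group, and the knockout libraries carried fewer than any other library. METTL14, which the protocol names, had 30.3 and 31 CPM in the mutant knock-in, against 19.7 and 28.8 CPM in growing control, and the groups did not overlap. Its log2 fold change of 0.34 (SE 0.14) missed the threshold (edgeR adjusted p = 0.0528), but passed it with upper-quartile scaling (edgeR adjusted p = 0.0115) and with the replicate number as a block (edgeR adjusted p = 0.0356). Growing control library 2 was near the mutant knock-in. In the METTL3 knockout METTL14 had 30.7 and 31.3 CPM, against 26.8 and 27.2 CPM in senescent control, a difference that was not tested. HRAS, a RAS gene, had 31.3 and 24.9 CPM in the mutant knock-in, against 14.9 and 14.9 CPM in growing control and rose (log2 fold change 0.91, SE 0.12, edgeR adjusted p = 2.25e-05). Its level was higher in the other groups that received RAS, at 49.9 and 45.3 CPM in the wild type knock-in, 43 and 41.3 CPM in the knockout and 63.9 and 64.1 CPM in senescent control.

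Genes that write, erase and read N6-methyladenosine were mostly higher. Apart from METTL3, 12 of 19 were higher and 2 lower (1 without either mutant library), with a median log2 change of 0.343. YTHDC1, the nuclear reader of the mark, had 169 and 182 CPM in the mutant knock-in, against 58 and 71.6 CPM in growing control and rose (log2 fold change 1.44, SE 0.11, edgeR adjusted p = 3.02e-07). WTAP, the adaptor of the writer complex, had 171 and 191 CPM in the mutant knock-in, against 95.9 and 109.5 CPM in growing control and rose (log2 fold change 0.82, SE 0.10, edgeR adjusted p = 1.31e-05). The reader YTHDC2, an RNA helicase, rose by 1.2 (SE 0.20). FTO, a demethylase, had 74.6 and 72.9 CPM in the mutant knock-in, against 111 and 104 CPM in growing control and fell (log2 fold change -0.54, SE 0.089, edgeR adjusted p = 0.000176). For each of these 4 genes the 2 groups did not overlap.

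Feedback and output genes of the RAS and ERK pathway were higher in 10 of 18 cases and lower in 3, with a median of 0.412. DUSP6, a phosphatase that inactivates ERK, had 173 and 159 CPM in the mutant knock-in, against 82.5 and 78.4 CPM in growing control and rose (log2 fold change 1.04, SE 0.10, edgeR adjusted p = 1.62e-06). DUSP4, another such phosphatase, rose by 1.16 (SE 0.15), and the inhibitors SPRY4 and SPRED2 by 0.96 (SE 0.094) and 0.88 (SE 0.091). The ephrin receptor EPHA4 fell by 1.36 on the log2 scale (SE 0.10), and FOSL1, a subunit of the AP-1 transcription factor, by 0.61 (SE 0.12). Immediate early genes, which respond to growth signals and stress within minutes, were higher in 13 of 21 cases and lower in 3 (1 without mutant library 1 or growing control library 1). EGR2, a zinc finger transcription factor, had 16.3 and 21.1 CPM in the mutant knock-in, against 0.532 and 0.366 CPM in growing control and rose (log2 fold change 5.35, SE 0.29, edgeR adjusted p = 2.12e-08). ATF3, a stress-induced transcription factor, had 71.2 and 85.5 CPM in the mutant knock-in, against 2.7 and 2.47 CPM in growing control and rose (log2 fold change 4.92, SE 0.18, edgeR adjusted p = 2.4e-09). FOS and FOSB, further AP-1 subunits, rose by 3.56 (SE 0.23) and 3.50 (SE 0.27).

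The secreted inflammatory genes of senescence were strongly higher in the mutant knock-in. Of 21 SASP cytokines and chemokines tested, 18 were higher and 3 lower, with a median of 3.98, and none had overlapping groups. IL1A (ENSG00000115008), an alarm cytokine that sits upstream of the other SASP factors, had 47.6 and 58 CPM in the mutant knock-in, against 0 and 0.0457 CPM in growing control. The growing control value is 1 count over both libraries, and the ratio of the counts, relative to library totals, was 2340, 95% interval 419 to 92500 (edgeR adjusted p = 1.52e-10). CXCL8, a neutrophil attractant, had 129 and 143 CPM in the mutant knock-in, against 1.02 and 0.685 CPM in growing control and rose (log2 fold change 7.30, SE 0.19, edgeR adjusted p = 1.38e-10). Its relative CXCL1 had 5.89 and 6.38 CPM in the mutant knock-in, against 0.0443 and 0 CPM in growing control, with 1 count over the growing control libraries and a ratio of 272, 95% interval 48.3 to 10800 (edgeR adjusted p = 1.53e-07). The alarm cytokine IL1B had 9.03 and 7.65 CPM in the mutant knock-in, against 0.177 and 0.183 CPM in growing control and rose (log2 fold change 5.48, SE 0.37, edgeR adjusted p = 2.26e-07). IL6, an acute phase cytokine, had 12.2 and 13.3 CPM in the mutant knock-in, against 2.13 and 1.51 CPM in growing control and rose (log2 fold change 2.80, SE 0.20, edgeR adjusted p = 1.54e-07). CCL20, which attracts lymphocytes and dendritic cells, had 2.26 and 2.73 CPM in the mutant knock-in, against 0 counts in growing control, and was at least 36.8-fold higher, with the limit set at 3 counts over the 2 growing control libraries.

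Not all secreted factors moved this way. The stromal chemokine CXCL12 had 6.64 and 6.52 CPM in the mutant knock-in, against 78 and 70.7 CPM in growing control and fell (log2 fold change -3.50, SE 0.12, edgeR adjusted p = 8.87e-10). CCL2, a monocyte attractant, had 10 and 8.24 CPM in the mutant knock-in, against 40 and 42.1 CPM in growing control and fell (log2 fold change -2.17, SE 0.16, edgeR adjusted p = 2.73e-07), and IL11 was the third member that fell (log2 fold change -0.96). Of 18 SASP proteases and inhibitors 8 were higher and 5 lower, with a median of 0.0763, not far from the shares over all genes. The collagenase MMP1 had 777 and 673 CPM in the mutant knock-in, against 126 and 140.1 CPM in growing control and rose (log2 fold change 2.44, SE 0.11, edgeR adjusted p = 5.03e-09). The stromelysin MMP3 rose by 2.48 (SE 0.12) and SERPINB2, an inhibitor of plasminogen activators, by 3.04 (SE 0.11). TIMP2, an inhibitor of matrix metalloproteinases, had 482 and 418 CPM in the mutant knock-in, against 1309 and 978 CPM in growing control and fell (log2 fold change -1.34, SE 0.13, edgeR adjusted p = 2.79e-06), and the protease ADAMTS1 fell by 1.19 on the log2 scale (SE 0.10). Of 32 growth factors and binding proteins 17 were higher and 11 lower, with a median of 0.606. GDF15, a stress cytokine, had 227 and 231 CPM in the mutant knock-in, against 15.6 and 11.4 CPM in growing control and rose (log2 fold change 4.09, SE 0.15, edgeR adjusted p = 1.21e-09). The epidermal growth factor receptor ligand AREG and the bone morphogenetic protein BMP2 rose by 3.25 (SE 0.21) and 3.15 (SE 0.14). IGFBP3, which binds insulin-like growth factors, had 31.9 and 34.5 CPM in the mutant knock-in, against 198 and 171 CPM in growing control and fell (log2 fold change -2.48, SE 0.18, edgeR adjusted p = 6.82e-07), and IGFBP4 fell by 1.51 on the log2 scale (SE 0.15).

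Targets of NF-kB, the transcription factor behind many inflammatory genes, were higher in 18 of 19 cases and lower in 0, with a median of 2.55. TNFAIP3, an enzyme that shuts NF-kB signalling off, had 273 and 332 CPM in the mutant knock-in, against 9.84 and 9.37 CPM in growing control and rose (log2 fold change 4.98, SE 0.13, edgeR adjusted p = 1.38e-10). ICAM1, the adhesion molecule that leukocytes bind, had 182 and 205 CPM in the mutant knock-in, against 12.9 and 10.2 CPM in growing control and rose (log2 fold change 4.06, SE 0.16, edgeR adjusted p = 3.25e-09). BIRC3, an inhibitor of apoptosis, rose by 3.83 (SE 0.17). BCL2A1, a survival factor of the BCL2 family, had 0.815 and 1.26 CPM in the mutant knock-in, against 0 counts in growing control, at least 15.3-fold higher. In each of these genes every mutant knock-in library lay above both growing control libraries.

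**Figure D2:**
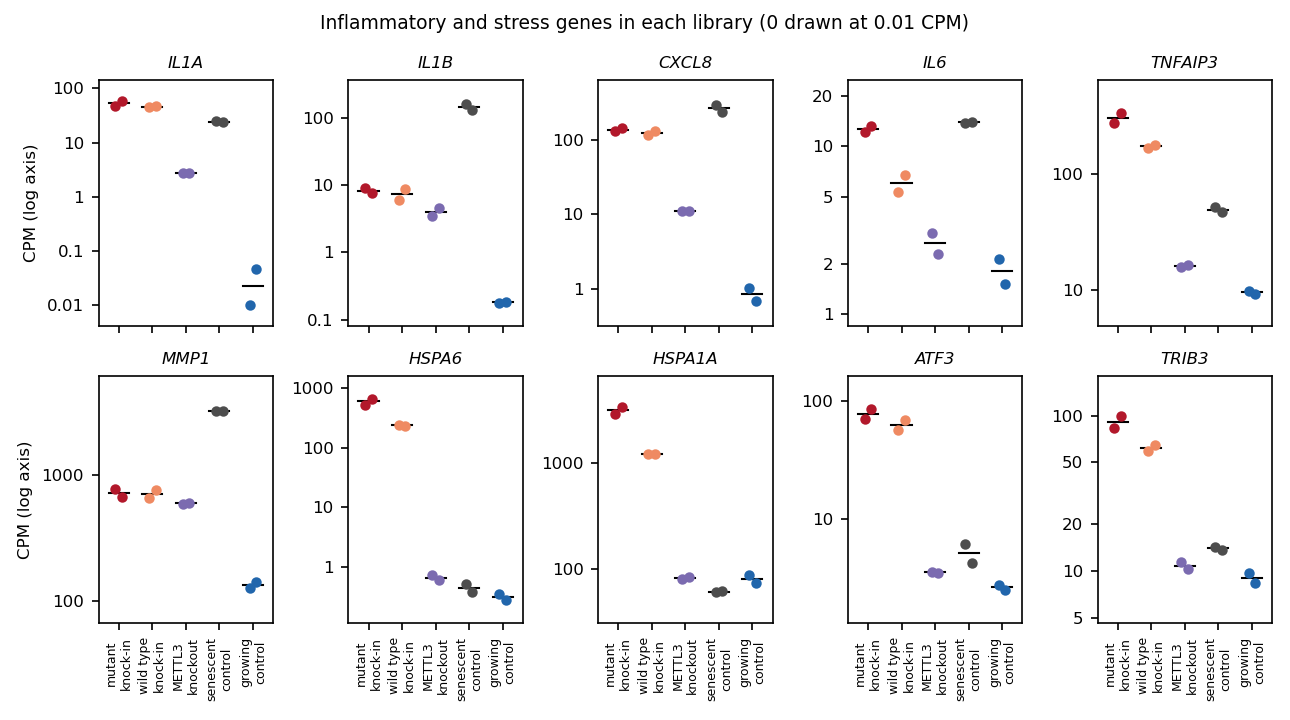
Level of 10 inflammatory, protease and stress genes in each library (CPM on a log axis, METTL3 left out of the totals, values of 0 drawn at 0.01 CPM). Points are libraries, 2 per group, and bars are group means. In the mutant knock-in HSPA6 stood at 534 and 677 CPM, against 0.355 and 0.274 CPM in growing control, and IL1B at 9.03 and 7.65 CPM in the mutant knock-in, against 166 and 133 CPM in senescent control.

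Interferon-stimulated genes were higher almost throughout. Of 41 tested, 38 were higher and 1 lower in the mutant knock-in, with a median log2 change of 3.86, and in 39 both mutant knock-in libraries lay above both growing control libraries. The DNA just before the start of such genes often holds the interferon-stimulated response element, at which interferon regulatory factors bind. Promoter windows of 300 bases, from 250 before to 50 after the start of the gene, were read from RefSeq on GRCh38.p14, and 31 of the 41 genes had one. The motif searched, with N for any base, was GAAANNGAAA and, for the other strand, TTTCNNTTTC. It was found in 20 of the 31 windows (64.5%), against 996 of 27305 windows of all genes (3.65%). The windows of a strongly changed pair, IFI44L and MX1, are shown with the matches in capitals. IFI44L lies at chr1:78620198-78620497 on the plus strand, with matches that begin at positions -164 and -73 from the start of the gene. MX1 lies at chr21:41420308-41420607 on the plus strand, with a match at position 12 after the start. A match is a description of the letters and was not tested as a binding site. The windows of RSAD2 and OAS1 held no match to this pattern, whose spacer is 2 bases. Both windows did hold GAAACGAAA, the same repeats with a shorter spacer, which was not searched.
IFI44L: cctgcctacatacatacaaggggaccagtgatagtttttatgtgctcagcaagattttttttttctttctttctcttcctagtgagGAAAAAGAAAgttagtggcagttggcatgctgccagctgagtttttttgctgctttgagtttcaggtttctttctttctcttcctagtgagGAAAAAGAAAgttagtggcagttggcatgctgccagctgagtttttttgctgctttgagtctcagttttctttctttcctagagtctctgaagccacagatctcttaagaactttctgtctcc
MX1: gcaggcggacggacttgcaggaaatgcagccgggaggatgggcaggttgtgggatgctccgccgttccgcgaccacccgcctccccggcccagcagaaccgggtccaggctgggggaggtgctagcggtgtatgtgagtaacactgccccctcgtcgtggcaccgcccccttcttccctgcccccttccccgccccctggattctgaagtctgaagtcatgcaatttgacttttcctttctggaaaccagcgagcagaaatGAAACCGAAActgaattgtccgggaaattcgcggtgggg

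IFI44L (ENSG00000137959), an interferon-induced gene of the IFI44 family, had 132 and 122 CPM in the mutant knock-in, against 0.532 and 0.914 CPM in growing control and rose (log2 fold change 7.45, SE 0.31, edgeR adjusted p = 1.71e-08). MX1, a GTPase that blocks viral nucleocapsids, had 105 and 87.9 CPM in the mutant knock-in, against 1.77 and 1.23 CPM in growing control and rose (log2 fold change 6.0, SE 0.31, edgeR adjusted p = 9.16e-08). Its relative MX2 had 21.2 and 20.8 CPM in the mutant knock-in, against 0.576 and 0.457 CPM in growing control and rose (log2 fold change 5.33, SE 0.26, edgeR adjusted p = 9.88e-09). OAS2, a sensor of double-stranded RNA that makes the second messenger that activates RNase L, had 74.5 and 60 CPM in the mutant knock-in, against 0.355 and 0.411 CPM in growing control and rose (log2 fold change 7.43, SE 0.37, edgeR adjusted p = 6.2e-08). OAS1 of the same family had 14.8 and 12.9 CPM in the mutant knock-in, against 0.0887 and 0.0457 CPM in growing control, which is 3 counts over the growing control libraries and a ratio of 206, 95% interval 70 to 1000 (edgeR adjusted p = 1.81e-08). IFIH1, the sensor of long double-stranded RNA, and RIGI, the sensor of RNA with a triphosphate end, rose by 5.26 and 2.50 on the log2 scale. RSAD2, which blocks viral RNA synthesis with a modified nucleotide, had 17.4 and 15.6 CPM in the mutant knock-in, against 0.0443 and 0.0457 CPM in growing control, with 2 counts over the growing control libraries and a ratio of 367, 95% interval 101 to 3040 (edgeR adjusted p = 1.13e-06). CXCL11, a chemokine that interferon induces, had 5.83 and 4.85 CPM in the mutant knock-in, against 0 counts in growing control, and was at least 79.3-fold higher.

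Among factors that carry the interferon signal, STAT2 rose by 0.88, IRF9 by 2.19 and IRF7 by 3.44 on the log2 scale. The ubiquitin-like modifier ISG15 rose by 2.41, the translation inhibitor IFIT1 by 4.82 and the tetherin BST2 by 6.62. IFITM2, which blocks virus entry, was the member that fell, at 52.3 and 51.2 CPM in the mutant knock-in, against 115 and 102 CPM in growing control (log2 fold change -1.06, SE 0.10, edgeR adjusted p = 2.41e-06), and IFITM3 and GBP1 did not pass the test (log2 fold changes 0.04 and 0.25). The IFITM genes are near-identical neighbours, and reads could be divided between them. Of the interferon genes themselves, IFNB1 had 2 and 3 counts in the mutant knock-in, against 0 and 0 in growing control. IFNA1 had 0 and 2 counts in the mutant knock-in, against 0 and 0 in growing control, and IFNL1, IFNL2, IFNL3 and IFNG had 0 in all 4 libraries. IFNE, a type I interferon made without infection in the reproductive tract, had 9.53 and 7.25 CPM in the mutant knock-in, against 0.177 and 0.411 CPM in growing control (log2 fold change 4.81, SE 0.33, edgeR adjusted p = 1.3e-07). IFNE stood between 6.47 and 13.8 CPM in all 8 libraries that had received RAS. In the 14 HLA class I presentation genes 8 were higher and 0 lower (1 without growing control library 2), with a median of 0.506. HLA-B, a class I heavy chain, had 129.5 and 133 CPM in the mutant knock-in, against 45.5 and 35.7 CPM in growing control and rose (log2 fold change 1.69, SE 0.11, edgeR adjusted p = 1.03e-07), and the peptide transporter TAP1 rose by 1.33 (SE 0.11). HLA genes are polymorphic and alike in sequence, so that their counts are less certain.

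**Figure D3:**
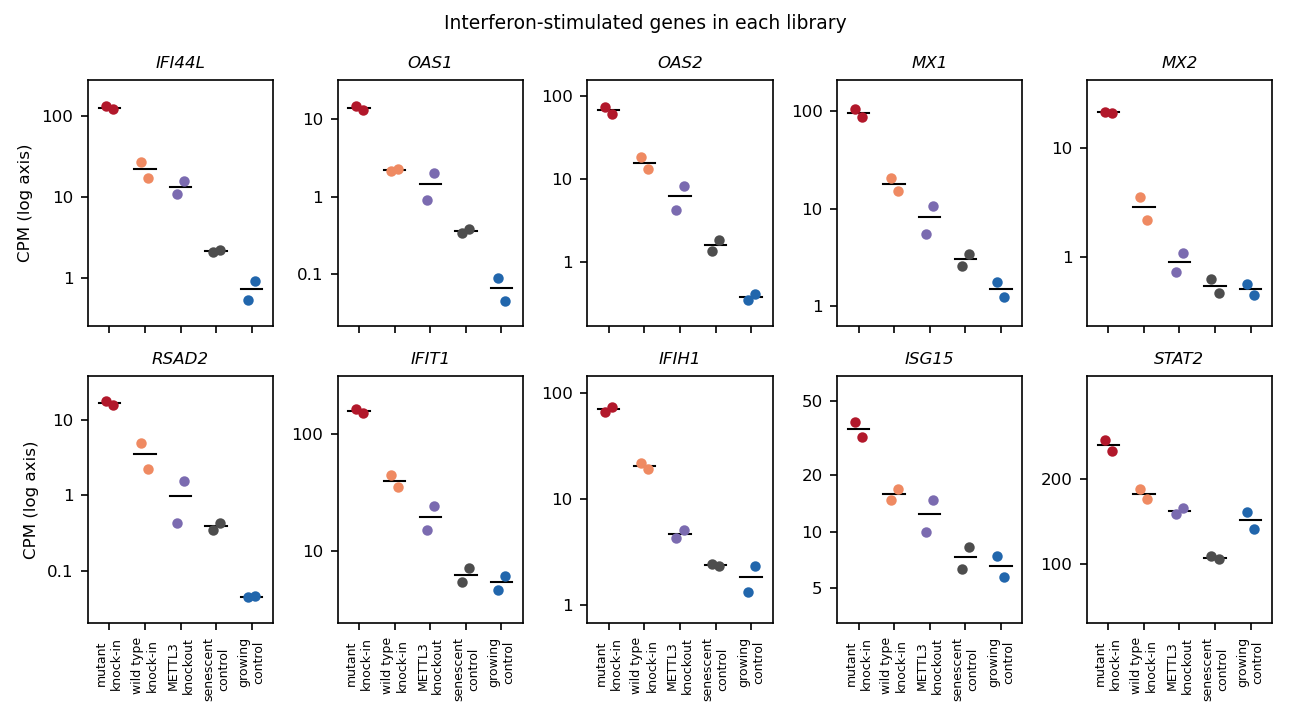
Level of 10 interferon-stimulated genes in each library (CPM on a log axis, METTL3 left out of the totals). Points are libraries, 2 per group, and bars are group means. The mutant knock-in libraries lie highest, with IFI44L at 132 and 122 CPM, against 26.9 and 17.1 CPM in the wild type knock-in and 0.532 and 0.914 CPM in growing control.

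Heat shock chaperones formed another group that was mostly higher, with 13 of 19 higher and 1 lower (2 without growing control library 2) and a median of 0.729. They refold damaged proteins and are controlled by the factor HSF1 at heat shock elements. The motif GAANNTTCNNGAA, or TTCNNGAANNTTC on the other strand, was found in 5 of 18 promoter windows of the list (27.8%), against 133 of 27305 windows of all genes (0.487%). The window of HSPA6, the member that changed most, is shown with its match in capitals. It lies at chr1:161524290-161524589 on the plus strand of GRCh38.p14, from RefSeq, and the match begins at position -74. The window of HSPA8, the chaperone that fell, held 2 matches, at positions -230 and -55. Those of HSPA1A, HSPA1B and HSPA4L held no match to this exact pattern, and near matches were not searched.
HSPA6: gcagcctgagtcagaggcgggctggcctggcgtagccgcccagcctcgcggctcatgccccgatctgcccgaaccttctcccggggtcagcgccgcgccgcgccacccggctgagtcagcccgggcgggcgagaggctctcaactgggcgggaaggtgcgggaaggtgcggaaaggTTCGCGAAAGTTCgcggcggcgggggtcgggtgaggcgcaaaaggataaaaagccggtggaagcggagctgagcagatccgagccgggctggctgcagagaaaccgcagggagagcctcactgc

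HSPA6 (ENSG00000173110), an inducible chaperone of the HSP70 family, had 534 and 677 CPM in the mutant knock-in, against 0.355 and 0.274 CPM in growing control and rose (log2 fold change 10.88, SE 0.20, edgeR adjusted p = 1.21e-11). By edgeR's log2 fold change this was the largest called rise among genes with a symbol, at least 5 CPM and no overlap, METTL3 left out. On that scale IL1A stood at 10.82, while its ratio of counts, over 1 growing control count, was 2340. HSPA1A, the main stress-induced HSP70, had 2899 and 3325 CPM in the mutant knock-in, against 87.9 and 74.1 CPM in growing control and rose (log2 fold change 5.26, SE 0.12, edgeR adjusted p = 5.14e-11). Its near-identical neighbour HSPA1B had 1115 and 1341 CPM in the mutant knock-in, against 49 and 40.9 CPM in growing control and rose (log2 fold change 4.77, SE 0.13, edgeR adjusted p = 1.52e-10). HSPA6, HSPA1A and HSPA1B are alike in sequence, so that reads could be divided between them. HSPA4L, a nucleotide exchange factor of HSP70, rose by 3.04 (SE 0.18), and the co-chaperones DNAJB1 and HSPH1 by 1.96 and 1.88 on the log2 scale. The mitochondrial chaperone HSPD1 rose by 0.73, the constitutive HSP70 member HSPA8 was the gene that fell (log2 fold change -0.27, a call lost with upper-quartile scaling), and HSPE1, HSPA4 and HSPB1 did not pass the test (log2 fold changes 0.18, 0.15 and 0.22).

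Genes of the ATF4 response, which cells switch on when amino acids run short or proteins fail to fold, were higher in 18 of 26 cases and lower in 3 (1 without either mutant library), with a median of 1.0. TRIB3, a pseudokinase that restrains ATF4, had 83.8 and 99.2 CPM in the mutant knock-in, against 9.66 and 8.41 CPM in growing control and rose (log2 fold change 3.34, SE 0.12, edgeR adjusted p = 1.29e-09). SESN2, an inhibitor of the growth kinase mTORC1, had 184 and 203 CPM in the mutant knock-in, against 26.1 and 23.1 CPM in growing control and rose (log2 fold change 2.97, SE 0.10, edgeR adjusted p = 8.87e-10). DDIT3, also called CHOP, rose by 2.61 (SE 0.13) and CTH, which makes cysteine, by 2.83 (SE 0.20). PYCR1, an enzyme of proline synthesis, fell by 0.62 on the log2 scale (SE 0.10). Of 20 cytosolic aminoacyl-tRNA synthetases 9 were higher and 6 lower, not far from the shares over all genes. AARS1, which charges alanine tRNA, had 234 and 273 CPM in the mutant knock-in, against 109.7 and 92.2 CPM in growing control and rose (log2 fold change 1.33, SE 0.11, edgeR adjusted p = 5.06e-07). QARS1, which charges glutamine tRNA, had 57.3 and 50.9 CPM in the mutant knock-in, against 147 and 130 CPM in growing control and fell (log2 fold change -1.36, SE 0.10, edgeR adjusted p = 2.37e-07). Chaperones of the endoplasmic reticulum went down, with 10 of 18 lower and 2 higher (4 higher without growing control library 2, 1 without mutant library 2) and a median of -0.243. The calcium-binding chaperone CALR had 594 and 539 CPM in the mutant knock-in, against 1370 and 1173 CPM in growing control and fell (log2 fold change -1.17, SE 0.10, edgeR adjusted p = 8.94e-07), and the disulphide isomerase PDIA6 fell by 1.22 on the log2 scale (SE 0.091).

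Cell division genes were lower almost throughout. Of 45 S phase and replication genes 42 were lower and 0 higher (2 higher without growing control library 2), with a median of -1.82, and of 58 G2 and M phase genes 55 were lower and 0 higher, with a median of -2.63. Genes of the G2 and M phases are repressed in resting cells through the cell cycle homology region, at which the DREAM complex and its relatives bind. Its letters TTTGAA, or TTCAAA on the other strand, were found in 35 of 50 promoter windows of the G2 and M phase list (70%), against 4212 of 27305 windows of all genes (15.4%). The windows of CDC20 and PLK1, regulators of mitosis, are shown with the matches in capitals. Both are from RefSeq on GRCh38.p14. CDC20 lies at chr1:43358731-43359030 on the plus strand, with matches at positions -178 and -65. PLK1 lies at chr16:23678639-23678938 on the plus strand, with a match at position -29. The window of KIF20A, the list member that fell most, held no match to these exact letters, and variants of them were not searched.
CDC20: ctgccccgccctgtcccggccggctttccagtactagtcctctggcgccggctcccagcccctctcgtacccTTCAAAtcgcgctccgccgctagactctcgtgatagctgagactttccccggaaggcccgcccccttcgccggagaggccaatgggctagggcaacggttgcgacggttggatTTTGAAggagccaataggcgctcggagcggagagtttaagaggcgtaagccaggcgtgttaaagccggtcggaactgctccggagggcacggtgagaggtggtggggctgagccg
PLK1: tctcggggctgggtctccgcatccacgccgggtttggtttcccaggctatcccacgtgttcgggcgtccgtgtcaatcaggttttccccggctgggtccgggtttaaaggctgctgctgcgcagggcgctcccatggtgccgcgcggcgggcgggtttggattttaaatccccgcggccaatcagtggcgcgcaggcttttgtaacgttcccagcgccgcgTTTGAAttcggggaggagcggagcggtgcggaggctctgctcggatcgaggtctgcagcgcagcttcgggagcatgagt

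CDC20 (ENSG00000117399), the activator of the anaphase-promoting complex, had 3.38 and 2.59 CPM in the mutant knock-in, against 67.7 and 61.4 CPM in growing control and fell (log2 fold change -4.43, SE 0.17, edgeR adjusted p = 1.86e-09). PLK1, a kinase that drives entry into mitosis, had 6.71 and 4.25 CPM in the mutant knock-in, against 78.6 and 64.9 CPM in growing control and fell (log2 fold change -3.70, SE 0.17, edgeR adjusted p = 9.49e-09). KIF20A, a kinesin needed for cytokinesis, had 3.63 and 3.59 CPM in the mutant knock-in, against 108 and 105 CPM in growing control and fell (log2 fold change -4.88, SE 0.14, edgeR adjusted p = 1.52e-10). In each of the 3 genes the highest mutant knock-in library lay below the lowest growing control library. Among replication genes, RRM2, a subunit of ribonucleotide reductase, had 10.7 and 10.3 CPM in the mutant knock-in, against 209.5 and 193 CPM in growing control and fell (log2 fold change -4.26, SE 0.12, edgeR adjusted p = 1.6e-10). TYMS, which makes thymidylate, had 8.52 and 7.31 CPM in the mutant knock-in, against 87 and 74.8 CPM in growing control and fell (log2 fold change -3.35, SE 0.14, edgeR adjusted p = 3.11e-09), and the thymidine kinase TK1 fell by 4.53 on the log2 scale (SE 0.18). Of 62 replication-dependent histone genes 27 could be matched to an identifier, and the others were left out. All 27 were tested, and 25 of them were lower and 0 higher, with a median of -3.14. The linker histone H1-5 had 5.14 and 4.52 CPM in the mutant knock-in, against 115 and 108 CPM in growing control and fell (log2 fold change -4.52, SE 0.15, edgeR adjusted p = 5.3e-10). Histone genes are many and alike, and their transcripts lack a poly(A) tail, so that their counts depend on how the library was made.

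Genes that mark arrest and the chromatin of senescent cells were lower in 21 of 26 cases and higher in 2. LMNB1, whose loss marks senescence, had 3.7 and 2.79 CPM in the mutant knock-in, against 64.4 and 56.4 CPM in growing control and fell (log2 fold change -4.21, SE 0.15, edgeR adjusted p = 1.21e-09). HMGB2, a chromatin protein that senescent cells lose, fell by 2.66 on the log2 scale (SE 0.15), and CBX5, a protein of heterochromatin, by 2.01 (SE 0.091). CDKN2B, an inhibitor of the kinases CDK4 and CDK6, had 129 and 139 CPM in the mutant knock-in, against 10.3 and 12.4 CPM in growing control and rose (log2 fold change 3.56, SE 0.12, edgeR adjusted p = 5.3e-10). Of the other inhibitors of cyclin-dependent kinases in the list, CDKN2C fell by 2.58 on the log2 scale (SE 0.18), and CDKN1B, CDKN1C and CDKN2D fell by 1.2, 1.27 and 1.23, whereas CDKN1A and CDKN2A did not pass the test. CDKN1A, or p21, had 551 and 473 CPM in the mutant knock-in, against 554 and 497 CPM in growing control (log2 fold change -0.04, SE 0.10, edgeR adjusted p = 0.759), and the groups overlapped. CDKN2A, which encodes p16 and ARF, had 39 and 40 CPM in the mutant knock-in, against 38.1 and 35 CPM in growing control (log2 fold change 0.11, SE 0.10, edgeR adjusted p = 0.318). Beside the level of CDKN1A, 21 of 29 targets of p53 were higher and 2 lower (1 without mutant library 2), with a median of 0.762. GADD45A, a growth arrest protein, had 137 and 184 CPM in the mutant knock-in, against 34.8 and 30.5 CPM in growing control and rose (log2 fold change 2.30, SE 0.14, edgeR adjusted p = 1.01e-07). BTG2, an antiproliferative factor, rose by 2.12 (SE 0.10) and the apoptosis inducer BBC3 by 1.70, whereas ZMAT3, an RNA-binding protein, fell by 0.70 on the log2 scale (SE 0.18).

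Genes of the fibroblast matrix and of the contractile apparatus were lower. Of 40 extracellular matrix genes 29 were lower and 3 higher, with a median of -0.922. COL1A1, the main chain of type I collagen, had 1029 and 744 CPM in the mutant knock-in, against 4297 and 2788 CPM in growing control and fell (log2 fold change -2.00, SE 0.20, edgeR adjusted p = 9.94e-06). THBS1, an adhesive glycoprotein that activates TGF-beta, had 1135 and 1008 CPM in the mutant knock-in, against 7294 and 6156 CPM in growing control and fell (log2 fold change -2.65, SE 0.13, edgeR adjusted p = 1.14e-08). The proteoglycan DCN had 195 and 186 CPM in the mutant knock-in, against 918 and 959.7 CPM in growing control and fell (log2 fold change -2.30, SE 0.12, edgeR adjusted p = 1.14e-08). POSTN, a matrix protein of wound repair, went the other way at 94.3 and 87.2 CPM in the mutant knock-in, against 15.6 and 21.2 CPM in growing control and rose (log2 fold change 2.30, SE 0.13, edgeR adjusted p = 3.68e-08), as did the proteoglycan LUM (log2 fold change 1.06, SE 0.15). Contractile and actin genes were lower in 16 of 21 cases and higher in 2 (0 without either mutant library), with a median of -1.26. ACTA2, smooth muscle actin, had 102 and 99.1 CPM in the mutant knock-in, against 371 and 337 CPM in growing control and fell (log2 fold change -1.81, SE 0.11, edgeR adjusted p = 6.09e-08). TAGLN, an actin-binding protein of smooth muscle and myofibroblasts, fell by 2.00 on the log2 scale (SE 0.10) and ACTG2, enteric actin, by 2.09 (SE 0.14). Targets and partners of the mechanical sensor YAP were lower in 13 of 19 cases and higher in 3. The matricellular protein CCN1 had 166 and 163 CPM in the mutant knock-in, against 479 and 399.5 CPM in growing control and fell (log2 fold change -1.42, SE 0.13, edgeR adjusted p = 1.08e-06), and YAP1 itself fell by 1.12 on the log2 scale (SE 0.087). The fall of the 8 fibroblast markers given above moves with these lists, but the marker and matrix lists share genes, among them COL1A1 and DCN. The part of that fall in these lists was not tested.

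Genes of the cytosolic ribosome, the respiratory chain and glycolysis were lower with few exceptions. Of 77 cytosolic ribosomal protein genes 76 were lower and 0 higher, with a median of -1.05. RPL7A, of the large subunit, had 139 and 130.4 CPM in the mutant knock-in, against 496 and 450.1 CPM in growing control and fell (log2 fold change -1.81, SE 0.10, edgeR adjusted p = 2.21e-08). Ribosomal protein genes have many processed pseudogenes, which could take part of their reads. Of 74 nuclear genes of the respiratory chain 71 were lower and 0 higher (1 without growing control library 2), with a median of -0.815, led by ATP5F1C and ATP5MC3 of the ATP synthase (log2 fold changes -1.62, SE 0.10, and -1.53, SE 0.10). Of 24 genes of glucose uptake and glycolysis 22 were lower and 2 higher, with a median of -0.932. GAPDH, often used as a reference gene, had 1421 and 1329 CPM in the mutant knock-in, against 4996 and 4516 CPM in growing control and fell (log2 fold change -1.79, SE 0.094, edgeR adjusted p = 1.49e-08). LDHA, lactate dehydrogenase, had 236 and 220.5 CPM in the mutant knock-in, against 891 and 851 CPM in growing control and fell (log2 fold change -1.93, SE 0.10, edgeR adjusted p = 1.06e-08). The 2 that rose were the hexokinase HK2 and the glucose transporter SLC2A3, by 0.87 (SE 0.10) and 0.39 (SE 0.09).

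Proteasome subunits were lower in 26 of 30 cases and higher in 0 (1 without growing control library 2), with PSMC3 of the regulatory particle down by 1.21 on the log2 scale (SE 0.087). Of 29 splicing factors of the SR and hnRNP families 17 were lower and 3 higher (6 higher without growing control library 2). SRSF2, a serine and arginine rich splicing factor, had 91 and 84.8 CPM in the mutant knock-in, against 223 and 209 CPM in growing control and fell (log2 fold change -1.30, SE 0.091, edgeR adjusted p = 1.49e-07). HNRNPC, whose binding is known to depend on nearby N6-methyladenosine, rose by 0.40 (SE 0.091). Cholesterol and fatty acid synthesis genes were lower in 23 of 30 cases and higher in 2 (1 without either mutant library). Targets of the antioxidant factor NRF2 were lower in 11 of 21 cases and higher in 4. NQO1, a quinone reductase, had 55.1 and 61.5 CPM in the mutant knock-in, against 248 and 223 CPM in growing control and fell (log2 fold change -2.01, SE 0.10, edgeR adjusted p = 9.11e-09), whereas HMOX1, heme oxygenase, had 147 and 141 CPM in the mutant knock-in, against 41.8 and 35.9 CPM in growing control and rose (log2 fold change 1.89, SE 0.12, edgeR adjusted p = 5.6e-08). The 3 metallothioneins measured, which bind zinc and copper and are alike in sequence, all fell, MT2A by 1.41 on the log2 scale (SE 0.13). Of 39 lysosome and autophagy genes 13 were higher and 10 lower (16 lower without growing control library 2), near the shares over all genes (35.6% higher and 32.3% lower). The cysteine protease CTSS had 4.39 and 5.25 CPM in the mutant knock-in, against 0.576 and 0.366 CPM in growing control and rose (log2 fold change 3.33, SE 0.29, edgeR adjusted p = 9.38e-07), and LIPA, lysosomal acid lipase, fell by 0.67 on the log2 scale (SE 0.11).

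Some of the largest changes were of genes outside these lists, among them CXCL11, given above. OLAH, a thioesterase that releases medium-chain fatty acids, had 8.52 and 8.51 CPM in the mutant knock-in, against 0 counts in growing control, and was at least 126-fold higher. SCN1A, a neuronal sodium channel, had 7.21 and 9.11 CPM in the mutant knock-in, against 0.0443 and 0 CPM in growing control, with 1 count over the growing control libraries and a ratio of 361, 95% interval 64.3 to 14300 (edgeR adjusted p = 4.09e-07). MYCT1, a gene first described as a target of MYC, had 55.8 and 69.5 CPM in the mutant knock-in, against 0.266 and 0.229 CPM in growing control and rose (log2 fold change 7.95, SE 0.22, edgeR adjusted p = 1.52e-10). Antisense genes were also among them, with SUGCT-AS1 at 49.3 and 59.2 CPM in the mutant knock-in, against 0.31 and 0.229 CPM in growing control (log2 fold change 7.62, SE 0.21). PDE7B-AS1 was the other, and HIF1A-AS3, annotated as a lincRNA, was also among the largest rises. The sources used here do not say whether strand was used in counting, so that reads of an antisense gene and its partner may not be told apart. Among the falls, the tight junction protein CLDN11 had 38.8 and 38.5 CPM in the mutant knock-in, against 833 and 718 CPM in growing control (log2 fold change -4.33, SE 0.13, edgeR adjusted p = 2.52e-10). TMSB15A, an actin-binding thymosin, had 0.251 and 0.133 CPM in the mutant knock-in, against 7.18 and 6.81 CPM in growing control (log2 fold change -5.13, SE 0.39, edgeR adjusted p = 2.63e-07). The other large falls were of cell division genes, among them PIMREG and CDCA3 (log2 fold changes -4.80, SE 0.27, and -4.32, SE 0.23).

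Among abundant transcripts, the nuclear noncoding RNAs NEAT1, MALAT1 and 7SK rose. NEAT1, the scaffold of nuclear paraspeckles, had 4874 and 4011 CPM in the mutant knock-in, against 384 and 327 CPM in growing control and rose (log2 fold change 3.64, SE 0.33, edgeR adjusted p = 2.6e-05). MALAT1, an RNA of nuclear speckles, had 20440 and 20660 CPM in the mutant knock-in, against 7855 and 12090 CPM in growing control and rose (log2 fold change 1.04, SE 0.17, edgeR adjusted p = 0.000292). 7SK, an RNA that holds back the elongation factor P-TEFb, had 17100 and 16160 CPM in the mutant knock-in, against 12300 and 11730 CPM in growing control and rose (log2 fold change 0.47, SE 0.093, edgeR adjusted p = 0.000736). The cytoskeletal genes ACTB and VIM, beta-actin and vimentin, fell by 1.22 (SE 0.10) and 1.34 (SE 0.094) on the log2 scale, and EEF1A1, the elongation factor of translation, by 0.50 (SE 0.085).

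Gene types differed in direction. Of 13395 protein-coding genes tested 4266 were higher and 5047 lower, with a median log2 change of -0.0769, whereas of 780 lincRNA genes, which are long RNAs between genes that encode no protein, 430 were higher and 71 lower, with a median of 1.24. Of 125 snoRNA genes, whose RNAs guide the modification of other RNAs, 57 were higher and 0 lower, and of 291 processed pseudogenes 154 were higher and 28 lower. As a share of counts, lincRNA genes took 3.61% and 3.56% in the mutant knock-in, against 1.29% and 1.73% in growing control, and protein-coding genes 89.2% and 89.3% in the mutant knock-in, against 94.4% and 93.8% in growing control. The share of snRNA genes was 0.802% and 0.729% in the mutant knock-in, against 0.282% and 0.341% in growing control. No 95% Wilson interval of the shares of these 3 types was wider than 0.032 percentage points. Genes with at least 1 count numbered 25265 and 25582 in the mutant knock-in, against 21764 and 22161 in growing control, although the mutant knock-in libraries were the smaller ones. The rise was also tied to abundance, with genes ranked by their mean CPM over all 10 libraries of the study. Of the 500 most abundant genes tested 124 were higher and 270 lower. Of those ranked 10001 to 16916, 3110 were higher and 1158 lower. A gene near the low-count filter that passed it only through the group in which it was high had to differ, so that these counts are a description.

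**Figure D4:**
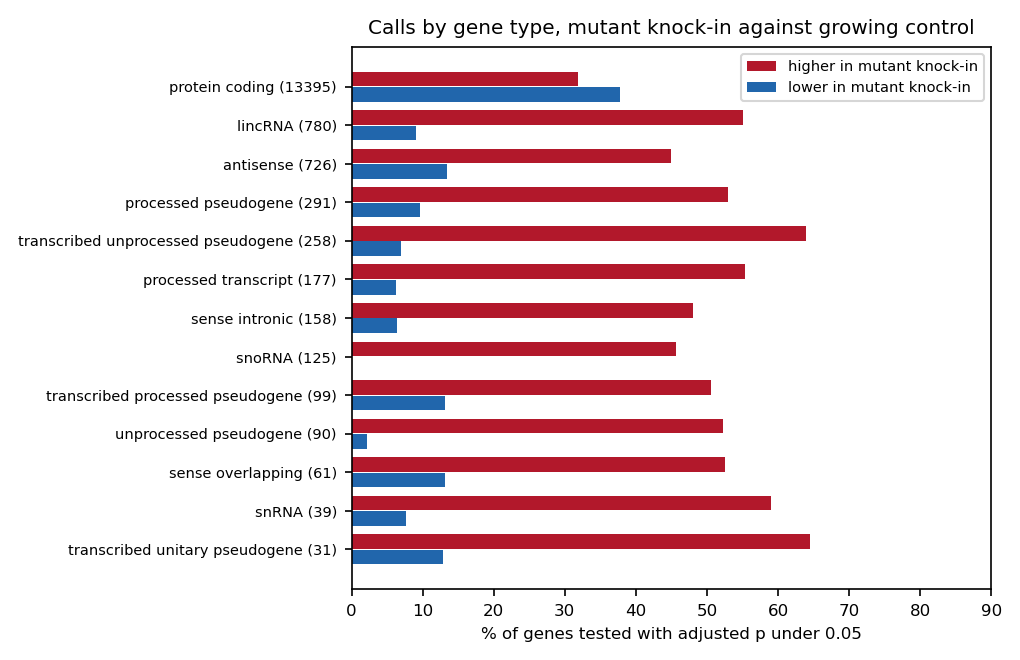
Percentage of tested genes of each annotated type that were higher or lower in the mutant knock-in than in growing control (edgeR adjusted p under 0.05, n = 2 libraries per group). Protein-coding genes were the type with more genes lower than higher, 37.7% against 31.8%, whereas lincRNA genes were higher in 55.1% and lower in 9.1%.

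The direct comparison of the mutant with the wild type knock-in asked which of these levels go with the METTL3 allele. Of 16916 genes 942 were higher (5.57%) and 1008 lower (5.96%) in the mutant knock-in by edgeR at an adjusted p under 0.05, and by at least 1 on the log2 scale 304 (1.8%) were higher and 20 (0.118%) lower. With upper-quartile scaling the counts were 1074 higher and 765 lower. Interferon-stimulated genes were higher in 35 of 41 cases and lower in 0, with a median of 1.27. Heat shock chaperones were higher in 10 of 19 cases (median 0.47), G2 and M phase genes in 19 of 58 (median 0.586), and NF-kB targets in 7 of 19 with 0 lower (median 0.323), whereas ribosomal protein genes were lower in 47 of 77 (median -0.349) and respiratory chain genes in 37 of 74 (median -0.368). These counts depended on single libraries. The counts of all genes higher and lower were 311 and 266 without mutant library 1, 88 and 28 without mutant library 2, 501 and 510 without wild type library 1, and 67 and 21 without wild type library 2. In the same order, the interferon-stimulated genes higher numbered 27, 24, 33 and 17, and the heat shock chaperones higher 6, 5, 5 and 5. The NF-kB targets higher numbered 4, 1, 4 and 2, the G2 and M phase genes higher 11, 0, 11 and 0, the ribosomal protein genes lower 8, 0, 24 and 0, and the respiratory chain genes lower 12, 1, 28 and 1. METTL3 itself took 11.3% and 14.2% of the counts in the mutant knock-in, against 5.87% and 5.86% in the wild type knock-in, so that the allele and its level cannot be told apart.

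Antiviral genes were among the largest differences between the knock-ins. MX2 had 21.2 and 20.8 CPM in the mutant and 3.56 and 2.19 CPM in the wild type knock-in (log2 fold change 2.89, SE 0.21, edgeR adjusted p = 4.56e-05). IFI44L had 132 and 122 CPM in the mutant and 26.9 and 17.1 CPM in the wild type knock-in (log2 fold change 2.54, SE 0.20, edgeR adjusted p = 0.000207). OAS1 had 14.8 and 12.9 CPM in the mutant and 2.12 and 2.24 CPM in the wild type knock-in (log2 fold change 2.66, SE 0.24, edgeR adjusted p = 0.000165). In each of these genes both mutant libraries lay above both wild type libraries. ERBB4, a receptor of the neuregulins, had 8.34 and 11.1 CPM in the mutant and 1.81 and 1.8 CPM in the wild type knock-in (log2 fold change 2.42, SE 0.24, edgeR adjusted p = 0.000267), and the microtubule protein MAP2 was higher by 2.16 (SE 0.19). HSPA6 had 534 and 677 CPM in the mutant and 246 and 235 CPM in the wild type knock-in (log2 fold change 1.33, SE 0.11, edgeR adjusted p = 9.99e-05). Several SASP genes did not pass this test. IL1A had 47.6 and 58 CPM in the mutant and 44.7 and 48.1 CPM in the wild type knock-in (log2 fold change 0.19, SE 0.11, edgeR adjusted p = 0.312). For CXCL8 the difference was 0.13 (SE 0.12, edgeR adjusted p = 0.508) and for MMP1 0.04 (SE 0.10, edgeR adjusted p = 0.845), whereas IL6 was higher in the mutant by 1.06 (SE 0.17, edgeR adjusted p = 0.00438). CDKN1A had 551 and 473 CPM in the mutant and 854 and 947 CPM in the wild type knock-in and was lower in the mutant (log2 fold change -0.81, SE 0.10, edgeR adjusted p = 0.000965). Among genes lower in the mutant, ATXN7L3B, a relative of a subunit of the SAGA complex, had 28.9 and 26.7 CPM in the mutant and 66 and 67.1 CPM in the wild type knock-in (log2 fold change -1.26, SE 0.089, edgeR adjusted p = 4.56e-05), and SLC16A6, a transporter of the monocarboxylate family, had 158 and 138 CPM in the mutant and 295 and 308 CPM in the wild type knock-in (log2 fold change -1.03, SE 0.11, edgeR adjusted p = 0.000411).

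Against the METTL3 knockout, which also received RAS and the siRNA, 4112 genes were higher (24.3%) and 4054 lower (24%) in the mutant knock-in by edgeR. Interferon-stimulated genes were higher in 38 of 41 cases and lower in 0, with a median of 2.34. IL1A had 47.6 and 58 CPM in the mutant knock-in and 2.8 and 2.73 CPM in the knockout (log2 fold change 4.25, SE 0.15, edgeR adjusted p = 3.94e-09), and HSPA6 had 534 and 677 CPM in the mutant knock-in and 0.731 and 0.6 CPM in the knockout (log2 fold change 9.82, SE 0.19, edgeR adjusted p = 2.04e-11). Against senescent control, which received RAS and a control siRNA, 4620 genes were higher (27.3%) and 4356 lower (25.8%). Interferon-stimulated genes were higher in 40 of 41 cases, heat shock chaperones in 16 of 19 and genes of the ATF4 response in 20 of 26. The SASP differed from senescent control in both directions, with 6 of 21 cytokines and chemokines higher and 12 lower, and 3 of 18 proteases and inhibitors higher and 13 lower. IL1B had 9.03 and 7.65 CPM in the mutant knock-in and 166 and 133 CPM in senescent control (log2 fold change -4.16, SE 0.18, edgeR adjusted p = 3.21e-08). MMP1 had 777 and 673 CPM in the mutant knock-in and 3194 and 3231 CPM in senescent control (log2 fold change -2.15, SE 0.11, edgeR adjusted p = 4.34e-08). In contrast, IL1A was higher in the mutant knock-in than in senescent control by 1.11 (SE 0.12) and TNFAIP3 by 2.62 (SE 0.11), and IL6 missed the threshold (log2 fold change -0.13, SE 0.16, edgeR adjusted p = 0.532).

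The order of the groups differed between lists when the median level of a list's genes in each library was set against the mean of growing control on the log2 scale. For interferon-stimulated genes it was 3.16 and 3.21 in the mutant knock-in, 1.9 and 1.67 in the wild type knock-in, 0.549 and 0.871 in the METTL3 knockout and 0.249 and 0.328 in senescent control. For NF-kB targets it was 1.83 and 2.04 in the mutant and 1.78 and 1.81 in the wild type, above 0.315 and 0.39 in the knockout and 1.34 and 1.26 in senescent control. Heat shock chaperones stood at 0.686 and 0.805 in the mutant knock-in and 0.449 and 0.387 in the wild type knock-in, and below 0 in all knockout and senescent control libraries. For G2 and M phase genes the knockout was the group nearest to growing control, at -1.39 and -1.65, against -2.57 and -2.48 in the mutant knock-in, -3.06 and -2.98 in the wild type knock-in and -2.62 and -2.53 in senescent control. Ribosomal protein genes were lowest in the mutant knock-in, at -1.04 in both libraries, with -0.763 and -0.617 in the wild type knock-in, -0.494 and -0.608 in the knockout and -0.399 and -0.448 in senescent control. All of these levels share the same growing control libraries, and their order is a description.

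**Figure D5:**
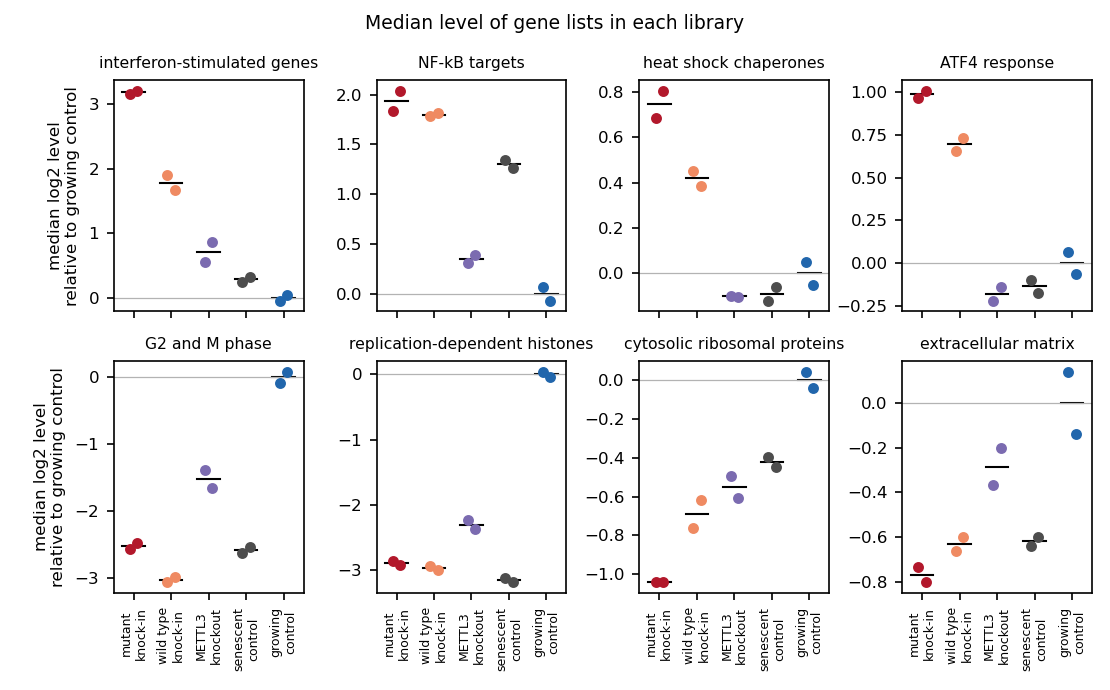
Median level of the genes of 8 lists in each library, as log2 of CPM plus 0.5 relative to the mean of the 2 growing control libraries (METTL3 left out of the totals). Points are libraries, 2 per group, and bars are group means. Interferon-stimulated genes are highest in the mutant knock-in, at 3.16 and 3.21, and ribosomal protein genes lowest there, at -1.04 in both libraries.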

How the data were processed

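RNA was sequenced from IMR90 fibroblasts in 5 groups of 2 samples, grouped by titles and column names. The authors deposited a table of read counts per gene for 10 libraries and 57736 gene identifiers. The submitters' processing notes name Bowtie2, RSEM 1.2.12 and the genome build hg19; the sources used here give no annotation, strand setting or filter. Library totals ran from 16293975 to 23570266 counts.

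From these counts, METTL3 was left out of the totals, since the transgene took up to 14.2% of a library, and was tested with totals that lack it. CPM are counts per 1000000 of that total after scaling. Genes were kept by filterByExpr of edgeR at a minimum count of 10, which left 16916, and scaled by TMM, a trimmed mean over genes that sets libraries to a common scale. One quasi-likelihood model over all 10 samples (edgeR 4.0.16, R 4.3.3, limma 3.58.1), with 5 residual degrees of freedom, gave each contrast, with p-values adjusted by Benjamini and Hochberg over all genes. Symbols were matched for 51959 identifiers and gene types for 52301. Counts were also simulated with 200 genes changed in the mutant knock-in and all others at the same mean in every group. Of these, 75.5% of 98 genes changed 2-fold and 88.9% of 99 changed 4-fold were recovered. There were 22 false calls among 16245 genes, to be read against the recovered genes rather than all genes. The real comparison called 67.9% of genes, so the simulation does not test scaling or false calls where most genes differ.

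The text names 13 fixed genes, the 12 largest rises and 12 largest falls at 5 CPM or more without overlap, the 4 and 2 largest changes in each direction of each of 32 lists, the 8 largest in each direction between the knock-ins, and the 6 most abundant changed genes in each direction; interferon ligands, marker sums and other list members given by fold alone were chosen after their values were seen, and some genes the rule names are not reported here. The comparison, the lists and the genes were chosen with earlier results of these data known. Of 1022 list genes 978 had an identifier and 917 were tested. A fold against a group at 0 counts uses 3 counts over its 2 libraries; ratios over 1 to 3 counts carry 95% intervals for counting error only. Alternatives were other scaling, no filter, DESeq2 1.42.0, the 2 groups alone, the replicate number as a block, METTL3 kept in the totals, and leaving out each library. Replicate numbers did not pair the samples (correlation of deviations 0.0599 between the mutant knock-in and growing control).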

Additional observations from a re-analysis of the deposited data

How the results depend on the processing

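Against growing control, the counts of genes higher and lower in the mutant knock-in stayed within 1.5 times of 6026 and 5459 under every alternative run. They were 6594 and 4844 with upper-quartile scaling, which moved the median of all genes to 0.153, 5712 and 5807 with METTL3 kept in the totals, and 4856 to 6267 higher and 4743 to 5644 lower without 1 library. Between 9492 and 11400 of the 11485 calls were shared with each alternative, and 0 changed direction. With the replicate number as a block, 6016 genes were higher and 5396 lower, and between the knock-ins 852 and 898; the numbers share no source in the labels (correlation 0.0599 with growing control and -0.0865 between the knock-ins), so that the block only uses a shared number. Of 2310 values for the 210 named genes, 2250 kept their direction and side of the threshold, 57 lost the call, 3 gained it and 0 reversed, in 16 genes. Between the mutant and the wild type knock-in, 1753 genes were lower without the filter and 29 G2 and M phase genes higher; DESeq2, which left 3936 genes without an adjusted p, had 585 higher; with only the knock-in samples in the fit, an alternative chosen after seeing the data, 1678 were higher and 2370 lower. The cause was not tested. Without 1 library, 67 to 501 genes were higher and 21 to 510 lower, with 17 to 33 interferon-stimulated genes, 5 to 6 heat shock chaperones, 1 to 4 NF-kB targets and 0 to 11 G2 and M phase genes higher, and 0 to 24 ribosomal protein and 1 to 28 respiratory chain genes lower; a lone sample is then assumed to vary like the other groups. The list alternatives were likewise chosen after seeing the data. With 2 samples per group, genes at a few counts have wide ratios.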

Other observations

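The Notch pathway, in which ligands on one cell activate receptors on the next, had 6 of 14 genes higher and 4 lower in the mutant knock-in than in growing control, near the shares over all genes (35.6% higher and 32.3% lower). HEY1, a transcription factor that Notch switches on, had 19.1 and 22.1 CPM in the mutant knock-in, against 2.79 and 2.24 CPM in growing control and rose (log2 fold change 3.03, SE 0.16, edgeR adjusted p = 1.45e-08). Its relative HES1 rose by 1.54 (SE 0.26) and the ligand JAG1 by 1.23 on the log2 scale. The ligand DLL4 had 4.07 and 2.79 CPM in the mutant knock-in, against 22.4 and 18.1 CPM in growing control and fell (log2 fold change -2.56, SE 0.19, edgeR adjusted p = 2.69e-07), and the receptor NOTCH3 had a log2 fold change of -1.88. Of 16 HOX genes measured, which record position along the body axis, 8 were lower and 3 higher. HOXB3 had 56.5 and 50.4 CPM in the mutant knock-in, against 111 and 106 CPM in growing control and fell (log2 fold change -1.02, SE 0.10, edgeR adjusted p = 1.78e-06).

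Genes of other cell types were picked out after their values were seen. TTN, the giant spring protein of striated muscle, had 109 and 141 CPM in the mutant knock-in, against 0.754 and 1.01 CPM in growing control (log2 fold change 7.14, SE 0.21, edgeR adjusted p = 2.81e-10). It had 52.7 and 43.3 CPM in the wild type knock-in, 6.33 and 6.65 CPM in the METTL3 knockout and 4.13 and 4.77 CPM in senescent control. Of the other muscle markers, the embryonic myosin MYH3 had 2.19 and 2.39 CPM in the mutant knock-in, against 0.266 and 0.274 CPM in growing control and rose (log2 fold change 3.05, SE 0.37, edgeR adjusted p = 1.48e-05), cardiac actin ACTC1 fell (log2 fold change -1.41, SE 0.54, edgeR adjusted p = 0.0342), and MYOD1, MYOG and CKM had 0 counts in the mutant knock-in and in growing control. PTPRC, the leukocyte antigen CD45, had 49 and 93 counts in the mutant knock-in, against 0 and 0 in growing control. LYZ, lysozyme, had 58 and 48 counts in the mutant knock-in, against 19 and 27 in growing control and rose (log2 fold change 1.72, SE 0.32, edgeR adjusted p = 0.000419). ITGAM, an integrin of myeloid cells, had 3 and 4 counts in the mutant knock-in, against 0 and 0 in growing control, and CD3E and MS4A1 were at 0 in both groups. In the wild type knock-in PTPRC had 24 and 20 counts, LYZ 62 and 46 and ITGAM 4 and 8. Other leukocyte markers did not rise in this way. CSF1R had 4 and 3 counts in the mutant knock-in, against 4 and 6 in growing control. CD14 had 0 and 4, against 3 and 1, LAPTM5 7 and 6, against 4 and 5, and TYROBP 0 and 0, against 1 and 0. Only PTPRC and LYZ of the leukocyte markers were tested.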
